A study of Mus musculus with 8 samples.

Results

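The 10 genes described here encode the enzymes that make one-carbon units, serine and proline: Mthfd2, Mthfd2l, Mthfd1l, Shmt2 and Aldh1l2 of mitochondrial folate metabolism, Phgdh, Psat1 and Psph of serine synthesis, and Aldh18a1 and Pycr1 of proline synthesis. They were taken by gene name from the 55421 genes in the deposited expression table, with no minimum level, and all 10 were found. RNA came from the cardiac right ventricle of 4 WT mice (libraries A to D) and 4 POLG Mutant mice (libraries E to H), 1 library per mouse. All were female and 9 to 10 months of age, from crosses of heterozygotes of the D257A line. POLG mice were homozygous for D257A, a germline substitution that leaves the polymerase of mitochondrial DNA without proofreading and was not restricted to the heart. Levels are FPKM, fragments per kilobase of transcript and M mapped fragments.

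In the mitochondrial folate pathway, SHMT2 moves a carbon from serine onto tetrahydrofolate and releases glycine. MTHFD2 or its relative MTHFD2L oxidises that carbon to the formyl level, after which MTHFD1L frees it as formate for use in the cytosol or ALDH1L2 burns it to CO2 with formation of NADPH. PHGDH, PSAT1 and PSPH build serine from a glycolytic intermediate, one after the other, and ALDH18A1 and PYCR1 build proline from glutamate inside the mitochondrion. Several of these genes, Mthfd2 above all, are known as targets of the transcription factor ATF4 and as genes that rise in striated muscle when the respiratory chain fails.

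Values were tested between genotypes as log2(FPKM + 1) by limma, in a fit of the 27317 genes above 0 in at least 1 library, and the threshold was a p of 0.05 after Benjamini-Hochberg adjustment. The limma p-values set each difference against the spread between mice, moderated by a trend over all genes fitted. Differences on this scale understate the change of genes near or below 1 FPKM, and 8 of the 10 genes had a mean below 1 FPKM. Of all genes fitted, 19 (0.0696%) were higher and 58 (0.212%) were lower in POLG. Genes averaging 1 FPKM or more had a median difference of -0.09. Rough depths, read from the spacing of the lowest values, were 13.5 M to 22.7 M fragments per library. The ventricular myosin light chain Myl2 was at 1389 to 2018 FPKM in every library. WT C and D stood apart. The atrial light chain Myl7 was at 51.7 and 110 FPKM there and at most 0.498 FPKM in the other 6 libraries. Among 6 atrial markers, Sln and Myl4 split in the same way. Nppa was at 196 and 480 FPKM in WT C and D, but also at 199 FPKM in POLG F. Bmp10 and Dkk3 were highest in C and D, yet every POLG library was above WT A and B. Malat1, an RNA kept in the nucleus, reached 237 and 211 FPKM in WT C and D against at most 71.4 FPKM elsewhere. The summed FPKM of 5 erythroid markers was 890 to 1956 in WT and 2722 to 4885 in POLG, and that of 8 ventricular cardiomyocyte markers 12372 to 14683 in WT and 9231 to 11676 in POLG. No marker in either list was at 0. The low mesothelial sum (4 markers) did not overlap either, at 1.57 to 7.79 FPKM in WT, highest in C and D, and 0.88 to 1.34 FPKM in POLG. At an unadjusted p under 0.05 (limma), 3 of these 4 were lower, but Wt1 was higher (log2 difference 0.26). Of all genes, 2.99% were higher and 10.1% lower at that level. The other lists overlapped in their sums, and 0 of their markers passed (limma). At an unadjusted p under 0.05, 3 of 6 macrophage and 2 of 6 endothelial markers were higher (limma). Lower at that level were 3 of 5 smooth muscle, 2 of 7 fibroblast and 1 of 3 Schwann markers. Of the erythroid markers 0 passed and 5 of 5 were higher at an unadjusted p under 0.05; of the ventricular markers Tnni3 alone passed, as lower, and 5 of 8 were lower at that level (limma). Their part in the results below was not tested, and in whole tissue fewer cells of a type and less RNA per cell cannot be told apart.

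Of the 10 genes, Mthfd2 alone passed the test, and it was higher in POLG. No gene passed as lower, and at an unadjusted p under 0.05 there were 3 higher (Mthfd2, Psat1 and Aldh18a1) and 2 lower (Psph and Aldh1l2), where 2.99% and 10.1% of all genes were higher and lower at that level. The same 5 genes did not overlap between genotypes. Every POLG library was above every WT library in Mthfd2, Psat1 and Aldh18a1, as in 1.75% of all genes and 2.15% of those whose mean lay between the lowest and highest of the 10, and below in Psph and Aldh1l2, as in 6.77% and 9.69%. Each of the 5 therefore had p = 0.0286 in an exact permutation test (two-sided), which 4 mice against 4 cannot go below. The median difference of the 10 genes was 0.02 on the log2 scale, beside -0.02 over all genes fitted, with 5 means higher and 5 lower. Within serine synthesis the genes did not share a direction, with a gene with all POLG libraries above WT (Psat1) and a gene with all below (Psph), while both proline genes had higher means in POLG.

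**Figure D1:**
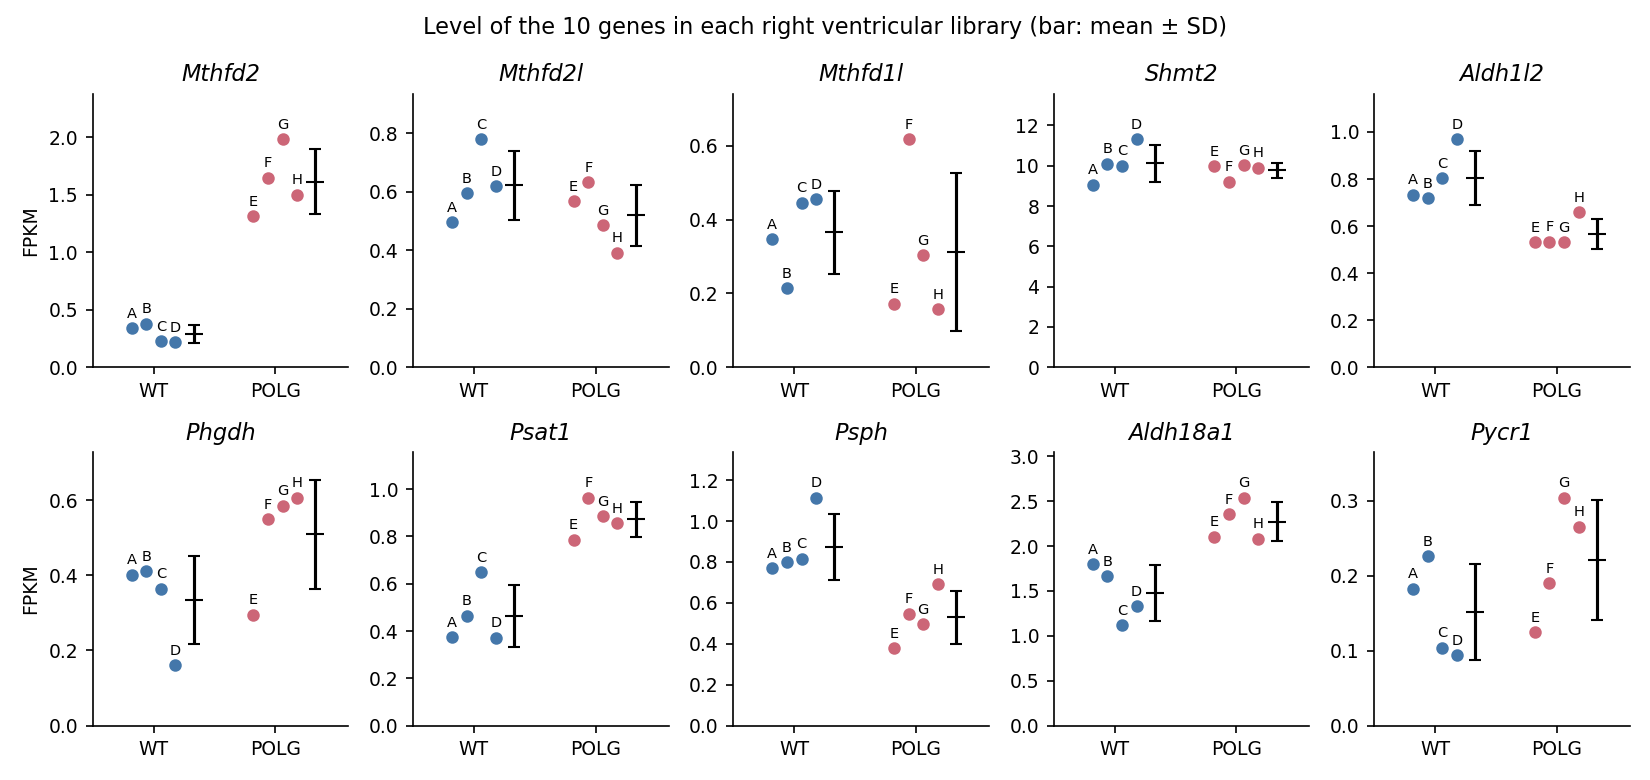
FPKM (linear axes from 0) of each of the 10 genes in the 4 WT (blue, A to D) and 4 POLG (red, E to H) libraries, 1 point per mouse, with the mean ± SD as a bar. The groups do not overlap in Mthfd2, Psat1 and Aldh18a1, where all POLG libraries lie above WT, or in Aldh1l2 and Psph, where all lie below. Shmt2 lies at 9.05 to 11.3 FPKM throughout.

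Mthfd2 (ENSMUSG00000005667.8, chromosome 6 of mm10 from 83305691 to 83325908, minus strand) encodes the mitochondrial methylenetetrahydrofolate dehydrogenase and cyclohydrolase that is high in embryonic and dividing cells and low in most adult tissues. It was at 0.338, 0.377, 0.228 and 0.215 FPKM in WT A to D and at 1.31, 1.65, 1.98 and 1.5 FPKM in POLG E to H. The lowest POLG library was thus 0.937 FPKM above the highest WT library. The mean rose 5.57 times, from 0.289 ± 0.0803 FPKM (SD, n = 4 mice) to 1.61 ± 0.283 FPKM (SD, n = 4). On the log2 scale the difference was 1.01 (standard error 0.10, 95% interval 0.78 to 1.25, adjusted p = 0.0176 from limma), the 14th smallest p of all genes fitted and the 8th largest difference among the 19 genes that were higher. With a pseudocount of 0.1 FPKM, which shrinks low genes less, the difference was 2.14. If all fragments came from its longest annotated transcript of 2085 nt, the levels correspond to roughly 6.43 to 17.8 fragments per WT library and 47.5 to 90.5 per POLG library. No transcript of another gene matched Mthfd2 at 95% identity or more over at least 200 nt.

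The direction held in all 17 alternatives run, but the call for Mthfd2 did not. Without 1 library the adjusted p ran from 0.0346 to 0.067 (limma), and it was above 0.05 without WT A (0.067), WT D (0.055) or POLG F (0.0575). Without WT C and D, the libraries with high Myl7, the log2 difference was 0.94 and the adjusted p = 0.101 (limma). WT C and D had the lowest Mthfd2 of all, and WT A and B, where Myl7 was low, were still below every POLG library.

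Mthfd2l (ENSMUSG00000029376.8, chromosome 5 from 90931117 to 91021368, plus strand), which carries out the same reactions and is the form kept in adult tissues, was at 0.496, 0.596, 0.780 and 0.620 FPKM in WT A to D and at 0.567, 0.632, 0.485 and 0.392 FPKM in POLG E to H. The groups overlapped, and the log2 difference was -0.09 (95% interval -0.29 to 0.10, adjusted p = 0.667 from limma). FPKM are scaled by length, so the levels of the 2 genes can be set side by side. Mthfd2 made up 40.6%, 38.7%, 22.6% and 25.7% of the summed FPKM of the pair in WT A to D and 69.8%, 72.3%, 80.3% and 79.3% in POLG E to H. Mthfd2l was therefore the higher of the pair in every WT library and Mthfd2 in every POLG library. The sum of the pair was 0.912 ± 0.0913 FPKM in the WT libraries and 2.13 ± 0.292 FPKM in the POLG libraries (SD, n = 4 each). Another gene, Gm14942, matches Mthfd2l at 98.3% identity over 291 nt. It was at 0.312 FPKM in POLG G, where the share of Mthfd2 was highest, and at 0 in every other library. How reads were split between Mthfd2l and Gm14942 was not tested.

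The ratio of a pair within each library was also tested, and it shows unequal change only. The log2 ratio of Mthfd2 to Mthfd2l (1 FPKM added to each) was -0.33 ± 0.18 in WT and 0.78 ± 0.19 in POLG (SD, n = 4 each), a difference of 1.11 (exact two-sided permutation test, p = 0.0286, adjusted p = 0.0571 over the 4 pairs compared). With a pseudocount of 0.1 the difference was 2.37. With 2 of 4 pairs at the smallest p, the adjustment cannot give less. The ratio was higher in 4 of 4 POLG libraries than in any WT library. Leaving out single libraries moved it between 1.03 and 1.18, and it was 0.96 without WT C and D, where 4 mice against 2 cannot give a p below 0.0667.

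**Figure D2:**
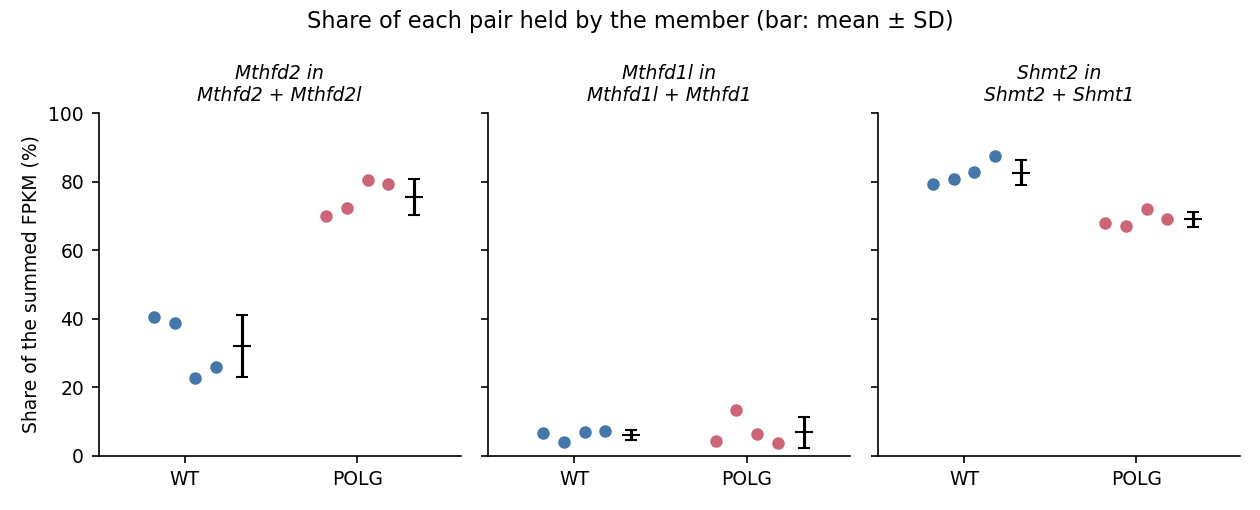
Share of the summed FPKM of a pair that the first-named gene holds, in percent, in each WT (blue) and POLG (red) library, with the mean ± SD as a bar. Mthfd2 goes from 22.6% to 40.6% in WT to 69.8% to 80.3% in POLG, Shmt2 from 79.3% to 87.5% to 67.0% to 72.1%, and Mthfd1l overlaps between genotypes, at 3.92% to 7.07% in WT and 3.58% to 13.3% in POLG.

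Promoter sequences are shown for Mthfd2 and Mthfd2l, the pair whose order differed between genotypes, and for Pycr1, which held the motif looked for. Those of Psat1 and Aldh18a1, where every POLG library was above every WT library, are also shown. Psph, with every POLG library below WT, was searched and is not printed, and Aldh1l2, also below, had no window. Psat1, Aldh18a1, Psph and Aldh1l2 did not pass the test. RefSeq windows (GRCm38.p6, the assembly behind mm10) from 250 bases before to 50 after a start were found for 9 of the 10 genes, in 10 windows, because Psat1 has 2. They were searched on both strands for TGATGNAA (core of the C/EBP-ATF response element that ATF4 binds), TGACGTCA (the cAMP response element) and CACGTG (the E-box), and, after the sequences had been seen, for the CCAAT box (CCAAT). The 250 bases before each start are printed 5′ to 3′ in the direction of the transcript, with matches in capitals. The RefSeq starts of Mthfd2 and Psat1 lie within the GENCODE span of the gene, and that of Mthfd2l within its first GENCODE exon.
Mthfd2, chr6:83317605-83317854, minus strand: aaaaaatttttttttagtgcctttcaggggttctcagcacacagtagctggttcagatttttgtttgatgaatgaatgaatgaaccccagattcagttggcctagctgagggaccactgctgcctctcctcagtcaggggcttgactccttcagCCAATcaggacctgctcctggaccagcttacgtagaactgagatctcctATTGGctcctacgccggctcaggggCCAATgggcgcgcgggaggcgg
Mthfd2l, chr5:90930946-90931195, plus strand: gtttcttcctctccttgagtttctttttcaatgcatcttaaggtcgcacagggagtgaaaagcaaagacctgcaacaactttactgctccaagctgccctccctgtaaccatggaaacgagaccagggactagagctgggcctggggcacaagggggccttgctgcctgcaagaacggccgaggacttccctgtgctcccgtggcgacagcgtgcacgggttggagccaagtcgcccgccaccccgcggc
Psat1, chr19:15925060-15925309, minus strand: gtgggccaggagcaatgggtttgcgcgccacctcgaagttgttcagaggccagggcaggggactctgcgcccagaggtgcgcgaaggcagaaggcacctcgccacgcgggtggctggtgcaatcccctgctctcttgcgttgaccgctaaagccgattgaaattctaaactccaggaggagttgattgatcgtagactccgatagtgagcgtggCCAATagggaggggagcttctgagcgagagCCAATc
Aldh18a1, chr19:40588464-40588713, minus strand: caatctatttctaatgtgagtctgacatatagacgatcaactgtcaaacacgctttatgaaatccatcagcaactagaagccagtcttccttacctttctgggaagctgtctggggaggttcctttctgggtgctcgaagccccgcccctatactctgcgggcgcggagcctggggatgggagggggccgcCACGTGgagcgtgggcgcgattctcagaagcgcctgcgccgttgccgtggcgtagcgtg
Pycr1, chr11:120643749-120643998, minus strand: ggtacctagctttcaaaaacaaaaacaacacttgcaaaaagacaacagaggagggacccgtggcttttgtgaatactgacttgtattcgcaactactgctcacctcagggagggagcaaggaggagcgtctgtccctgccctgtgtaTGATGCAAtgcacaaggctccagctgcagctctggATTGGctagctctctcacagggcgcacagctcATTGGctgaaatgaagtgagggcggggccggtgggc
The capitals in Mthfd2 are 3 CCAAT boxes, those in Psat1 2 of its 3 (the other lies after the start), the run in Aldh18a1 an E-box, and those in Pycr1 the only TGATGNAA match among the 10 windows, TGATGCAA, and 2 CCAAT boxes. Mthfd2l had no match to any of the 4 motifs. Over all 32851 RefSeq windows, 3.97% held TGATGNAA, 1.79% TGACGTCA and 7.15% CACGTG, against 1, 0 and 1 of the 10. A single CCAAT box or more was in 37.4% of all windows and 5 of the 10. At least 2 were in 11.7% of all windows and the same 5 of the 10. At least 3 were in 3.37% of all windows and 2 of the 10 (Mthfd2 and the Psat1 window printed). The other Psat1 window, at chr19:15924623-15924872 before its start, held no CCAAT box. Of the windows not printed, that of Psph, with all POLG libraries below WT, held 2 CCAAT boxes. That of Phgdh, whose groups overlapped, also held 2. Aldh18a1, with all POLG libraries above WT, held 0. Any bearing of the boxes on the differences was not tested. These are matches of letters only, and the motifs do not overlap each other.

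Shmt2 (ENSMUSG00000025403.5, chromosome 10 from 127517123 to 127522444, minus strand), which feeds the pathway from serine, had the highest level of the 10 genes. It was at 9.05, 10.1, 9.99 and 11.3 FPKM in WT A to D and at 9.98, 9.21, 10.02 and 9.90 FPKM in POLG E to H, so the WT range enclosed all POLG libraries. The log2 difference was -0.04 with a 95% interval from -0.21 to 0.12 (adjusted p = 0.803 from limma), and it was above 0 after median ratio scaling (0.06) and quantile normalization (0.03), without WT D (0.01) and without WT C and D (0.03).

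The cytosolic counterpart Shmt1, a related gene outside the 10, rose where Shmt2 did not pass. Shmt1 was at 2.37, 2.41, 2.06 and 1.62 FPKM in WT A to D and at 4.69, 4.53, 3.88 and 4.43 FPKM in POLG E to H, with no overlap. The WT mean was 2.11 ± 0.366 FPKM and the POLG mean 4.38 ± 0.35 FPKM (SD, n = 4 each), with a log2 difference of 0.80 (standard error 0.10, adjusted p = 0.0341 from limma). Shmt2 held 82.6% ± 3.59 of the summed FPKM of the pair in WT and 69.1% ± 2.18 in POLG (SD, n = 4 each). The log2 ratio of Shmt2 to Shmt1 differed by -0.84 between POLG and WT (exact two-sided permutation test, p = 0.0286, adjusted p = 0.0571 over 4 pairs), lower in 4 of 4 POLG libraries than in any WT library. The call for Shmt1 ended without every single library except WT B (adjusted p from 0.0456 to 0.123 from limma), without WT C and D (0.104) and after scaling to nuclear genes (0.0559).

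Mthfd1l (ENSMUSG00000040675.17, chromosome 10 from 3973118 to 4167081, plus strand), the mitochondrial formyltetrahydrofolate synthetase, was at 0.347, 0.213, 0.445 and 0.456 FPKM in WT A to D and at 0.172, 0.618, 0.303 and 0.156 FPKM in POLG E to H. POLG F held the highest level and POLG E and H the lowest, so the spread within POLG exceeded the difference of the means (log2 difference -0.07, 95% interval -0.34 to 0.20, adjusted p = 0.807 from limma). Its cytosolic counterpart Mthfd1, a trifunctional folate enzyme, averaged 5.58 ± 0.547 FPKM in the WT libraries and 4.19 ± 0.288 FPKM in the POLG libraries (SD, n = 4 each), with every POLG library below every WT library (log2 difference -0.34, adjusted p = 0.132 from limma). The log2 ratio of Mthfd1l to Mthfd1 differed by 0.28 (exact two-sided permutation test, p = 0.0571, adjusted p = 0.0762 over 4 pairs), and by 0.14 with a pseudocount of 0.1.

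Aldh1l2 (ENSMUSG00000020256.14, chromosome 10 from 83487450 to 83534140, minus strand), the mitochondrial 10-formyltetrahydrofolate dehydrogenase, was at 0.734, 0.717, 0.803 and 0.970 FPKM in WT A to D and at 0.532, 0.534, 0.531 and 0.660 FPKM in POLG E to H. The 4 POLG libraries lay below the 4 WT libraries, with a gap of 0.0573 FPKM. The log2 difference of -0.21 (standard error 0.077, 95% interval -0.38 to -0.03) missed the threshold (limma, adjusted p = 0.318). The groups overlapped once scaled by median ratios, with p = 0.0857 by the exact permutation test. An exon of D10Wsu102e on the opposite strand shares 1056 nt with it and was at 0.0489 to 0.0774 FPKM.

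Phgdh (ENSMUSG00000053398.11, chromosome 3 from 98313170 to 98339990, minus strand), which commits glycolytic carbon to serine, was at 0.402, 0.411, 0.365 and 0.162 FPKM in WT A to D and at 0.295, 0.548, 0.585 and 0.607 FPKM in POLG E to H. POLG E lay within the WT range and the other 3 above it, and the log2 difference of 0.18 did not pass (95% interval -0.05 to 0.40, adjusted p = 0.503 from limma). The split of its reads is uncertain, because 13 other genes carry stretches of 200 nt or more at 95% identity or higher to Phgdh. Only 3 of them were above 0, chiefly Gm7901 (98.7% over 1597 nt), at 0.0775 to 0.247 FPKM in the WT libraries and 0.268 to 0.478 FPKM in the POLG libraries. Phgdh and its copies were also summed, a choice made with the values in view. The sum averaged 0.538 ± 0.211 FPKM in the WT libraries and 0.901 ± 0.0948 FPKM in the POLG libraries (SD, n = 4 each). In that sum every POLG library was above every WT library (log2 difference 0.31, exact two-sided permutation test, p = 0.0286).

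Psat1 (ENSMUSG00000024640.9, chromosome 19 from 15904678 to 15947337, minus strand), the phosphoserine aminotransferase, was at 0.374, 0.465, 0.650 and 0.372 FPKM in WT A to D and at 0.786, 0.964, 0.885 and 0.857 FPKM in POLG E to H. WT C was the highest WT library and still 0.136 FPKM below the lowest POLG library. The POLG mean was 1.88 times the WT mean, and the log2 difference of 0.36 (standard error 0.085, 95% interval 0.16 to 0.55) missed the threshold (limma, adjusted p = 0.138, and 0.0693 to 0.315 over 17 alternatives). Without WT C and D it was 0.40.

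Psph (ENSMUSG00000029446.14, chromosome 5 from 129765558 to 129787449, minus strand), the phosphatase of the last step, went the other way. It was at 0.768, 0.799, 0.815 and 1.11 FPKM in WT A to D and at 0.380, 0.547, 0.497 and 0.692 FPKM in POLG E to H. The POLG mean was 39.5% lower, and the log2 difference of -0.29 (standard error 0.096, 95% interval -0.52 to -0.07) missed the threshold (limma, adjusted p = 0.261). Psph shares 452 nt of exon with Cct6a on the opposite strand, a far higher gene with 14.3 to 17.1 FPKM in the WT libraries and 11.8 to 16.6 FPKM in the POLG libraries. The libraries were stranded, but the sources do not say whether strand was used in counting, and without it reads of the shared stretch cannot be told apart. Scaled by median ratios, the groups of Psph overlapped, with p = 0.0857 by the exact permutation test.

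Aldh18a1 (ENSMUSG00000025007.13, chromosome 19 from 40550257 to 40588463, minus strand), the first enzyme from glutamate to proline, was at 1.80, 1.66, 1.12 and 1.33 FPKM in WT A to D and at 2.10, 2.36, 2.54 and 2.08 FPKM in POLG E to H. WT C and D were the lowest, and the lowest POLG library lay 0.287 FPKM above the highest WT library. A processed pseudogene on the same strand within the gene, Gm15801, shares no exon with it and was listed at 6.45 to 13.0 FPKM in the WT libraries, also lowest in C and D, and at 8.73 to 12.6 FPKM in the POLG libraries. The POLG mean was 1.54 times the WT mean, at 2.27 ± 0.218 FPKM against 1.48 ± 0.31 FPKM (SD, n = 4 each). The log2 difference of 0.41 (standard error 0.11, 95% interval 0.16 to 0.66) missed the threshold (limma, adjusted p = 0.173), and without WT C and D it was 0.26.

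Pycr1 (ENSMUSG00000025140.15, chromosome 11 from 120635712 to 120643769, minus strand), a reductase of the last step to proline, had the lowest level of the 10 genes, at 0.182, 0.226, 0.104 and 0.0935 FPKM in WT A to D and at 0.124, 0.190, 0.304 and 0.265 FPKM in POLG E to H. WT C and D were again the lowest and the groups overlapped (log2 difference 0.08, 95% interval -0.05 to 0.22, adjusted p = 0.608 from limma). At these levels a library holds roughly 4.09 to 19.4 fragments of Pycr1.

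**Figure D3:**
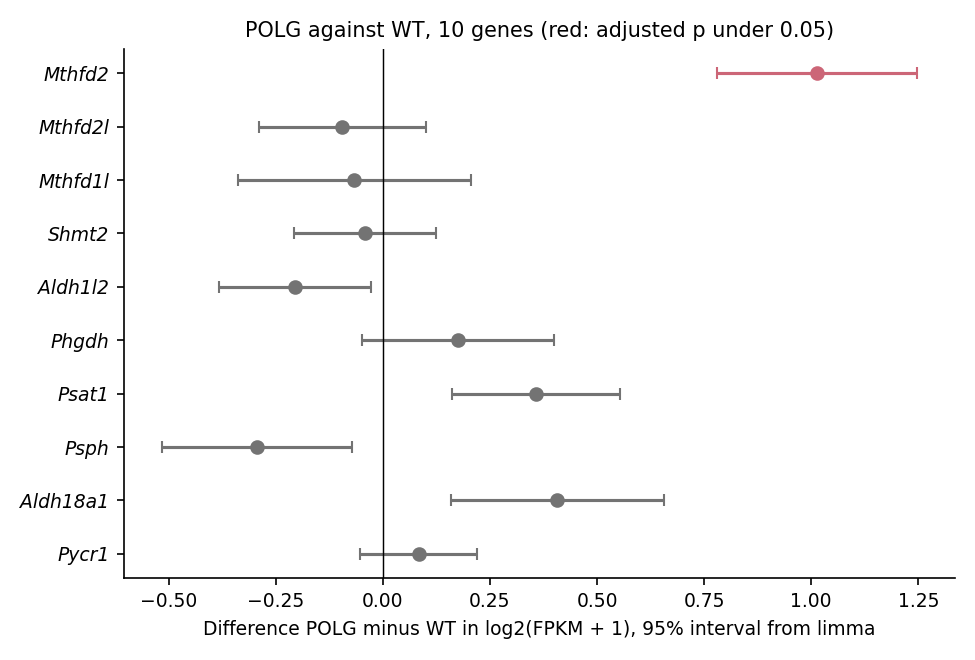
Difference POLG minus WT in log2(FPKM + 1) for the 10 genes, with the 95% interval from limma (n = 4 mice per genotype). Mthfd2 (red), at 1.01, is the only gene that passed at an adjusted p under 0.05; the intervals of Psat1 and Aldh18a1 lie above 0 and those of Psph and Aldh1l2 below 0.

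WT C and D, the libraries with high Myl7, held the lowest levels of Mthfd2, Aldh18a1 and Pycr1 and the highest of Aldh1l2 and Psph among the WT libraries. For the genes with no overlap these are the extremes farthest from POLG, except for Psat1, where WT C was nearest to POLG. WT C and D also had lower rough depths (13.5 M and 16.2 M fragments) than WT A and B (20.6 M and 22.7 M). POLG H was at 15.2 M. The part of depth in these levels was not tested. Without C and D the log2 differences were 0.94 for Mthfd2, 0.40 for Psat1, 0.26 for Aldh18a1, -0.14 for Aldh1l2 and -0.23 for Psph, all of the same sign as with all libraries. They were 0.096 for Phgdh, 0.018 for Pycr1 and -0.027 for Mthfd2l. Without C and D, 0 of the 10 genes passed (limma), where 0.0307% of genes were higher and 0.0883% lower.

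The rest of the one-carbon, serine and proline network was described in 8 lists of 80 gene identifiers fitted. Of these, 1 was higher and 2 were lower in POLG, where 0.0696% and 0.212% of all genes fitted were. Their median log2 difference was -0.07. In the cytosolic folate cycle Shmt1 was the only gene of 10 that passed, and the median was -0.03. At an unadjusted p under 0.05 (limma), 1 of these 10 was higher and 3 were lower, where 2.99% and 10.1% of all genes were. Mtr, the methionine synthase, lay farthest below 0 in that list and is named after its values were seen. Its level was 13.2 to 20.1 FPKM over the WT libraries and 5.84 to 10.4 FPKM over the POLG libraries, with no overlap, and its log2 difference of -0.98 missed the threshold (limma, standard error 0.18, adjusted p = 0.0822). Of 10 proline, glutamate and ornithine enzymes 0 were higher and 2 lower, with a median of -0.26 and 9 of 10 differences below 0. At an unadjusted p under 0.05 (limma), 0 were higher and 6 lower, beside the same shares of all genes. The median over all genes averaging 1 FPKM or more was -0.09. The 2 lower genes that passed were Aldh4a1, the second enzyme of proline breakdown, and Gpt2, the mitochondrial alanine aminotransferase.

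Aldh4a1 was at 26.1, 27.8, 22.9 and 25.3 FPKM in WT A to D and at 16.9, 17.3, 15.2 and 13.8 FPKM in POLG E to H, a log2 difference of -0.66 (standard error 0.089, adjusted p = 0.0384 from limma). All POLG libraries lay below all WT libraries. Gpt2 was at 5.01, 4.72, 5.44 and 5.61 FPKM in WT A to D and at 2.96, 3.32, 3.48 and 2.81 FPKM in POLG E to H, a log2 difference of -0.58 (standard error 0.080, adjusted p = 0.0398 from limma), again with no overlap. Both calls ended without any single library, with adjusted p from 0.061 to 0.127 for Aldh4a1 and from 0.0537 to 0.141 for Gpt2 (limma), and without WT C and D (0.118 and 0.198). Prodh, the first enzyme of proline breakdown, was chosen after its values were seen. Prodh ranged from 1.38 to 4.44 FPKM over the WT libraries and from 0.989 to 1.55 FPKM over the POLG libraries, with a log2 difference of -0.61 that did not pass (adjusted p = 0.344 from limma). That value rested largely on WT C, the highest library, and was -0.38 without it and -0.24 without WT C and D.

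In the other 6 lists 0 genes passed in either direction by limma. At an unadjusted p under 0.05, 0 genes were higher in any of the following 5 lists, and 0, 1, 1, 2 and 2 were lower, in the order given. Of all genes fitted, 2.99% were higher and 10.1% lower at that level. The 8 genes of folate uptake, retention and formyl transfer had a median log2 difference of -0.06, with Mtfmt, which formylates the initiator tRNA of mitochondrial translation from the same one-carbon pool, at -0.13 (adjusted p = 0.645) and the folate receptor Folr2 at -0.25 (adjusted p = 0.691, limma). The 6 genes of purine synthesis were all below 0 (median -0.12), with Gart, a formyl folate user, at -0.20 (adjusted p = 0.256) and Atic at -0.15 (adjusted p = 0.484, limma). The median over all genes averaging 1 FPKM or more was -0.09. After median ratio scaling Gart was at -0.097 and Atic at -0.07. Among 6 genes of glycine cleavage and folate demethylation (median -0.07), Gcsh was at -0.26 (adjusted p = 0.207) and Amt at -0.40 (adjusted p = 0.539, limma). Among 11 genes of serine and glycine transport and breakdown (median -0.12), the mitochondrial glycine carrier Slc25a38 was at -0.54 (adjusted p = 0.154) and Sdsl at -0.23 (adjusted p = 0.340, limma). Among 8 genes of transsulfuration and the methionine cycle (median -0.11), Amd1 was at -0.50 (adjusted p = 0.191) and Cth at -0.27 (adjusted p = 0.303, limma). Among these genes, 3 values rested on single libraries. Mtfmt was at -0.073 without WT A. Folr2 was at -0.056 without WT D, -0.068 without POLG H and -0.44 without POLG E. Amt was at -0.21 without WT D and at -0.0045 without WT C and D.

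The list of stress response transcription factors and their targets (20 names, 21 identifiers because Ddit3 has 2) had a median log2 difference of 0.04, with 12 above 0, 0 that passed, and 5 higher and 1 lower at an unadjusted p under 0.05. The shares over all genes fitted were 2.99% higher and 10.1% lower at that level. Asns, the asparagine synthetase and a known ATF4 target like Psat1, was at 0.399, 0.584, 0.457 and 0.687 FPKM in WT A to D and at 1.11, 1.43, 1.32 and 1.95 FPKM in POLG E to H. Its groups did not overlap and its log2 difference of 0.67 missed the threshold (limma, standard error 0.12, adjusted p = 0.0822). The arginine transporter Slc7a1 was at -0.51 (adjusted p = 0.210, limma). The point farthest above 0, Atf3, also named after its values were seen, had a log2 difference of 1.49 with a spread from 2.01 to 48.3 FPKM within WT (limma, standard error 0.97, adjusted p = 0.578), and of 0.017 without WT C and D. The mRNA of Atf4 itself, chosen after its values were seen, ranged from 22.7 to 34.0 FPKM over the WT libraries and from 23.7 to 29.7 FPKM over the POLG libraries. Its log2 difference was -0.07 (adjusted p = 0.803 from limma), and above 0 after median ratio scaling (0.04) or quantile normalization.

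**Figure D4:**
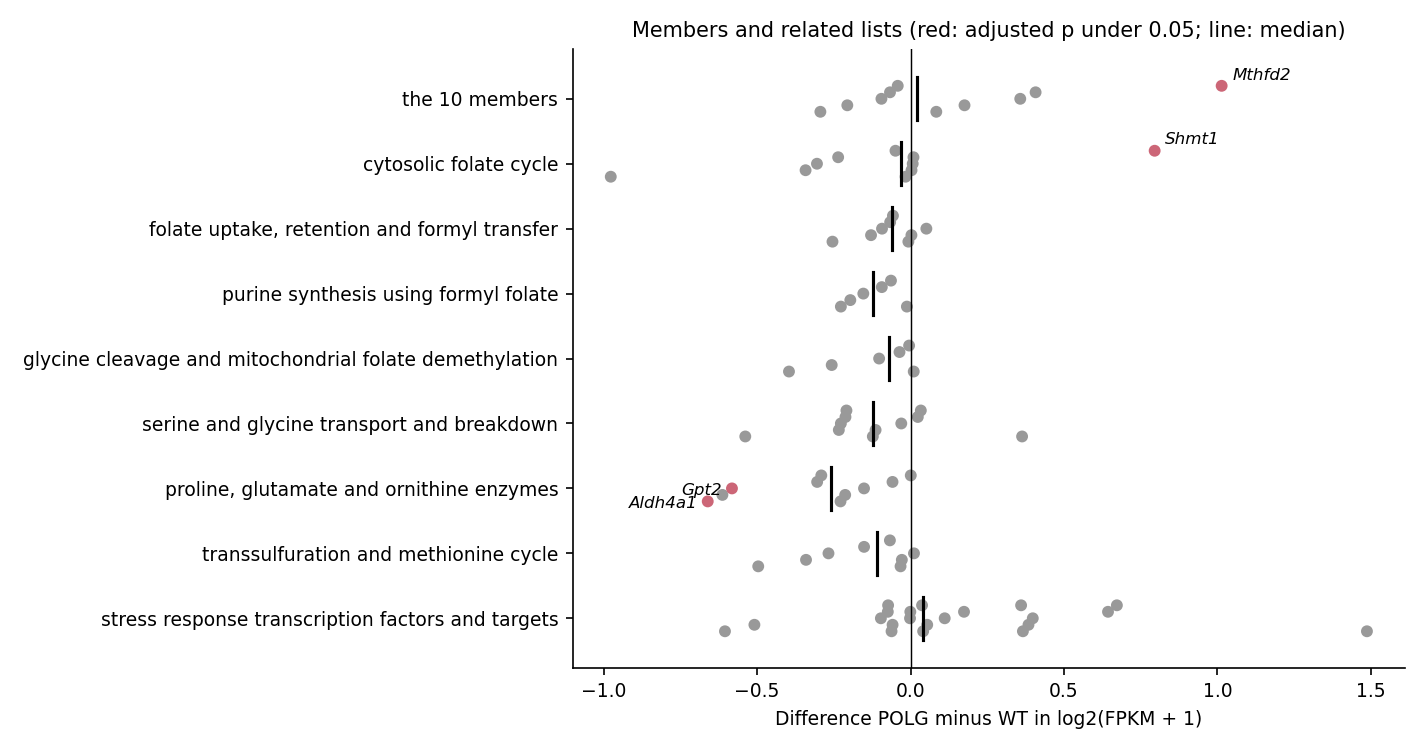
Difference POLG minus WT in log2(FPKM + 1) for the 10 genes and for the genes of the 8 related lists, 1 point per gene identifier, with the median of each list as a vertical line (vertical position within a row has no meaning). Mthfd2, Shmt1, Aldh4a1 and Gpt2 (red) passed at an adjusted p under 0.05, Mthfd2 and Shmt1 as higher and Aldh4a1 and Gpt2 as lower.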

How the data were processed

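Poly(A) stranded libraries from DNase-treated RNA were made and sequenced in paired ends by LC Sciences. Reads were mapped to mm10 with HISAT2 and assembled in StringTie. The submitters' notes also list cutadapt, FastQC and edgeR, with no version in any source used. The deposited values are FPKM per gene, with 0.0001 in place of 0, beside the ratio of means and its log2 that the authors computed, which were not used. FPKM are not counts, so the edgeR test of the study was not run.

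Genes at 0 in all 8 libraries (28104 of 55421) were left out. The rest, as log2(FPKM + 1), were fitted in R 4.3.3 by limma 3.58.1, whose prior variance followed a trend. Means, ratios and exact permutation tests over 70 assignments used Python 3.11.15 and numpy 2.4.6, and similar transcripts were searched with BLAST 2.17.0 in GENCODE M21. The fit was also run on simulated data with normal noise on the log2 scale, which does not model the counting of few fragments. No result above rests on that run. Ratios were compared for 4 pairs, 1 of which is not reported here. The 10 genes, lists and tests were chosen with earlier results of these data known. Genes named from a list were those that passed, otherwise the 2 with the smallest p. Depth (13.5 M to 22.7 M fragments) is rough: 38% to 41.6% of low values were whole fragments to within 2%. Alternatives were pseudocounts of 0.1 and 5, means of at least 1 and 5 FPKM, median ratio, quantile and nuclear scaling, no trend, a robust prior, library weights, leaving out each library and, chosen after seeing the data, leaving out WT C and D and adding the copies of Phgdh.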

Additional observations from a re-analysis of the deposited data

Results flagged for a closer look

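In 28 groups of 4 libraries (the 10 genes and the 4 ratios of pairs, in each genotype), 3 held a library far from the other 3, where chance flags about 5% of groups. Aldh1l2 was at 0.660 FPKM in POLG H and at 0.531 to 0.534 FPKM in POLG E to G, so the other 3 were close together. Psph was at 1.11 FPKM in WT D and at 0.768 to 0.815 FPKM in the other WT libraries. WT D is also the library with the most Myl7. Shmt2 was at 9.21 FPKM in POLG F and at 9.90 to 10.02 FPKM in the other POLG libraries.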

How the results depend on the processing

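Mthfd2 was the 1 gene of 10 called higher, and 0 were called among genes averaging 1 or 5 FPKM or more, where Mthfd2 (mean 0.95 FPKM) is not tested and 2 and 1 of the 10 genes are. Its log2 difference ran from 0.95 to 1.07 without single libraries (0 to 1 gene called) and was 0.94 without WT C and D (0 called). It passed under each of the other pseudocounts, scalings, priors and weights. The ratio of Mthfd2 to Mthfd2l was 0.96 and that of Shmt2 to Shmt1 -0.64 without WT C and D. Without single libraries the ratio of Mthfd1l to Mthfd1 ran from 0.16 to 0.33, with p = 0.0286 without POLG H (exact permutation test). Mthfd1l was at 0.024 without WT C and D. Shmt2 was at 0.0632 (0.0633 in the permutation test) after median ratio scaling, 0.0326 after quantile normalization, -0.089 to 0.0091 without single libraries and 0.0283 without WT C and D. Atf4 was at 0.0379 after median ratio scaling, 0.0012 after quantile normalization and -0.157 to 0.0313 without single libraries. The cause was not tested.

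Of all genes 19 were higher and 58 lower. The counts were 71 and 217 among genes averaging at least 1 FPKM, 66 and 214 at 5 FPKM or more (fewer genes tested), 41 and 159 with no trend, 8 and 23 without WT C and D, and 3 to 21 and 5 to 56 without single libraries. The lower genes were 37 after median ratio scaling and 35 with a robust prior. Of the 80 related genes 1 was higher and 2 lower. The higher ones were 0 among genes averaging at least 5 FPKM, with nuclear scaling and without WT C and D, and 0 to 1 without single libraries. The lower ones were 4 among genes averaging at least 1 FPKM, 1 after median ratio scaling, and 0 with nuclear scaling, with a robust prior, without WT C and D and without any single library. For the 8 genes below 1 FPKM a library holds from roughly 4.09 to 98.1 fragments of a gene, and the part of depth in the calls was not tested. No paired analysis was run, because the sample labels give no litter or other pairing of WT and POLG mice.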
